A study of Homo sapiens with 6 samples.

Results

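Transcript levels of 10 genes of epithelial-mesenchymal transition (EMT) were examined in T24 cells, an established human bladder cancer cell line, after transfection of small interfering RNAs (siRNAs) against the circular RNA circ_0000235 (circ235). The genes were chosen by name from the 58288 gene rows of a table of raw read counts. They were the transcription factors ZEB1, ZEB2, SNAI1, SNAI2, TWIST1 and TWIST2, the cadherins CDH1 and CDH2, the intermediate filament gene VIM and the matrix gene FN1. The libraries fell into 3 conditions: cells given a control siRNA (NC), cells given si-circ235-1 and cells given si-circ235-2, the last pair being siRNAs of different sequence directed at the site where the ends of circ235 join. Each condition had 2 libraries, labelled as biological replicates, and each library held between 15373992 and 19912893 counts. All 6 libraries were made from poly(A)-selected RNA of a single line, so every comparison describes T24 cells only. The table had no row for a circular RNA, and the knock-down of circ235 was not checked here. Nothing in the labels says which cultures the replicates came from, and the p-values below measure the spread between these libraries.

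EMT is the process in which epithelial cells loosen their junctions and take on the shape and motility of mesenchymal cells. The ZEB, SNAI and TWIST proteins repress CDH1, which encodes E-cadherin, the adhesion molecule of epithelial junctions, while N-cadherin (CDH2), vimentin (VIM) and fibronectin (FN1) are widely used as marks of the mesenchymal state. Cells can hold mixtures of epithelial and mesenchymal genes, and many carcinoma lines do so in culture.

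The labelled cell type was checked against marker genes first. Of 10 urothelial markers, only PPARG and FOXA1 reached 1 CPM (1 count per 1000000) in every library, and UPK3A, KRT20 and KRT13 had no count in any. The summed level of these 10 genes was 25.9 to 27.5 CPM in NC, 42.4 to 50.5 CPM under si-circ235-1 and 54.2 to 55.0 CPM under si-circ235-2. PPARG alone made up most of each sum, at means of 22.88, 42.73 and 50.15 CPM in the same order. General epithelial genes (KRT7, KRT8, KRT18, KRT19 and EPCAM) summed to 3057 to 5566 CPM, nearly all of it from KRT7, KRT8 and KRT18. KRT19 had 1 count, in NC replicate 2, and EPCAM averaged 2.81 CPM in NC, 1.45 CPM under si-circ235-1 and 1.63 CPM under si-circ235-2. The 5 fibroblast markers summed to 0.525 to 0.794 CPM in NC, 1.06 to 1.68 CPM under si-circ235-1 and 0.908 to 0.944 CPM under si-circ235-2, with COL1A2 and LUM at 0. The 3 endothelial markers summed to 0.489 to 0.722 CPM, 1.12 to 2.62 CPM and 1.12 to 1.58 CPM in the same order. Of the leukocyte markers, PTPRC and CD3E were at 0 and CD14 carried the whole sum, which was 9.94 to 10.98 CPM under si-circ235-1 and 1.72 to 2.87 CPM in the other 4 libraries. Their part in the results below was not tested.

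The mature microRNAs that are known to bind ZEB1 and ZEB2 messages, and the microRNA that the study paired with circ235, are shown here because 7-base words complementary to their seeds tell the EMT genes apart. Capitals mark the seed, bases 2 to 8, and the sequences are those of RefSeq on GRCh38.p14.
miR-330-5p: uCUCUGGGccugugucuuaggc
miR-200b: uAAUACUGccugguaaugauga
miR-200c: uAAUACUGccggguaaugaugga
miR-429: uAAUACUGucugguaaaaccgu
miR-200a: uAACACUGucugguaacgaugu
miR-141: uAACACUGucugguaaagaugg
miR-205: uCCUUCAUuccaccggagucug

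MiR-200b, miR-200c and miR-429 share one seed, and miR-200a and miR-141 share another. The words searched on the transcript strand were CAGTATT for the first seed, CAGTGTT for the second, CCCAGAG for miR-330-5p and ATGAAGG for miR-205, in the longest 3' UTR that GENCODE release 29 gives each gene. Among 12146 tested genes with such a UTR, CAGTATT occurred in 18.9%, CAGTGTT in 21.0%, CCCAGAG in 20.5% and ATGAAGG in 13.3%.

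ZEB1 held 6 CAGTATT, 3 CAGTGTT and 1 ATGAAGG in a UTR of 2549 bases, and ZEB2 held 5 CAGTATT and 4 CAGTGTT in 5370 bases. Among tested genes whose UTR was within 25% of the same length, 27.3% of 2129 had any CAGTATT in the range of ZEB1 and 45.3% of 1125 in the range of ZEB2. FN1 held 2 CAGTATT in 1115 bases, where 11.6% of 1969 genes of like length held the word at all. SNAI2 held 1 CAGTATT, and none of the 4 words was found in SNAI1, TWIST1, TWIST2, CDH2 or VIM. CCCAGAG occurred in CDH1 alone of the 10 genes, once, and in 21.7% of 2229 genes with a UTR of like length. A match describes these letters only, and no microRNA was measured in these libraries. Sites of ZEB1, ZEB2, FN1 and CDH1 are printed as examples, with the word in capitals and positions counted from 1 at the first base after the stop codon.
ZEB1, bases 369 to 375: ttgttttatcttatCAGTATTa
ZEB1, bases 1313 to 1319: gtcttcaaacctggCAGTATTa
ZEB2, bases 392 to 398: gcactaccatacatCAGTATTt
ZEB2, bases 208 to 214: gcaaaaattttgtaCAGTGTTa
FN1, bases 245 to 251: tattcaataccgctCAGTATTt
FN1, bases 531 to 537: ttatcaatttttccCAGTATTt
CDH1, bases 712 to 718: tcccatcttggcctCCCAGAGt

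In control cells the 10 genes ranged from abundant to undetected. TPM (transcripts per 1000000), in which counts are divided by the summed length of a gene's exons before scaling each library to the same total, was used wherever levels of different genes are compared. VIM was the highest, at 400.4 ± 7.74 TPM (SD, n = 2), which placed it at rank 306 among all genes in NC. SNAI1, a zinc finger repressor, came next at 19.5 ± 8.003 TPM and FN1 followed at 7.18 ± 2.31 TPM. CDH2 stood at 2.29 ± 0.179 TPM and ZEB1 at 2.13 ± 0.383 TPM, and their libraries overlapped, so these neighbours did not differ beyond their spread. ZEB2 was lower, at 0.286 ± 0.0451 TPM, and CDH1 reached 0.0980 ± 0.0101 TPM on 4 and 3 counts. SNAI2, TWIST1 and TWIST2 had no count in NC. SNAI1 and FN1 did not overlap on this scale, with 13.9 and 25.2 TPM for SNAI1 against 5.55 and 8.82 TPM for FN1.

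**Figure D1:**
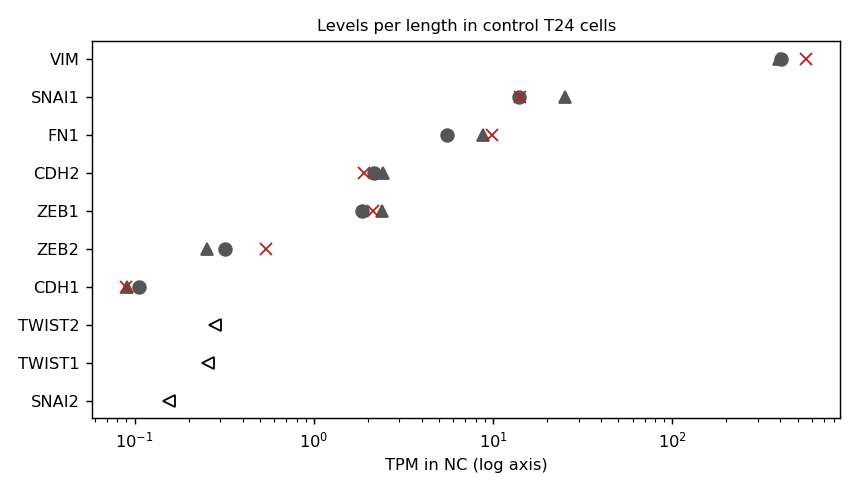
Level of each gene in control T24 cells in TPM on a log axis, where the filled circle and triangle are NC replicates 1 and 2 by exon length, the cross is the NC mean by longest transcript, and an open triangle is the level that 3 counts would give for a gene with none. VIM lay at 400.4 TPM, CDH2 and ZEB1 overlapped near 2 TPM, and SNAI2, TWIST1 and TWIST2 were without a count.

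The length used moved some of these levels by more than the replicate spread. With the longest transcript in place of all exons, VIM was 559.4 TPM, FN1 9.81 TPM, CDH2 1.89 TPM and ZEB2 0.539 TPM in NC. On this scale the means of SNAI1 (14.1 ± 5.90 TPM) and FN1 (9.81 ± 3.23 TPM) lay within their spread, and ZEB1, at 2.12 ± 0.400 TPM, stood above CDH2, so the order of these neighbours is not fixed. The change was widest for ZEB2, whose annotated exons sum to 25058 bases while its longest transcript has 9583.

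Differences between conditions were tested with edgeR's quasi-likelihood test across 14415 genes that passed a filter on low counts, and a gene was called at a Benjamini-Hochberg adjusted p under 0.05. The filter kept VIM, FN1, CDH2, ZEB1, ZEB2 and SNAI1 and left out CDH1, SNAI2, TWIST1 and TWIST2. Under si-circ235-1 none of the 6 tested genes was called by edgeR against NC, where 5.88% of all genes were called (2.24% higher and 3.64% lower). VIM and FN1 were the 2 of the 6 with an unadjusted p under 0.05, and DESeq2 called 1, VIM. Over all 14415 genes, 3644 had an unadjusted p under 0.05 in that comparison. Under si-circ235-2, 2 of the 6 (FN1 and CDH2) were called higher and none lower against NC, where 31.4% of all genes were called (15.7% higher and 15.7% lower). Between the siRNAs, 3 of the 6 were called, with FN1 and CDH2 higher and VIM lower under si-circ235-2, where 39.7% of all genes were called (21.1% higher and 18.6% lower). Shares of this size on 6 genes do not set the EMT genes apart from the rest of the transcriptome.

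The median log2 fold change of the 6 was 0.05 under si-circ235-1, 0.18 under si-circ235-2 and 0.15 between the siRNAs. Over all genes tested it was -0.03, -0.0038 and 0.04. In each comparison 3 of the 6 genes had conditions whose libraries did not overlap, against 55.0% of all genes for si-circ235-1, 71.4% for si-circ235-2 and 72.1% between the siRNAs. Both comparisons with NC use the same control libraries, so their values are given side by side and not as separate evidence.

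**Figure D2:**
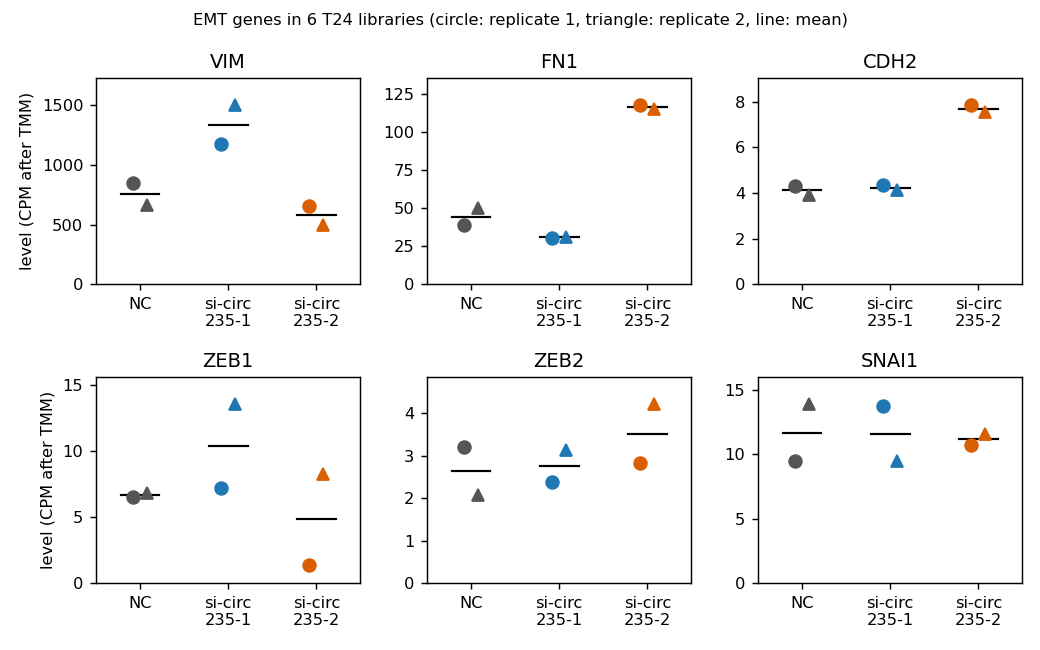
CPM after scaling by the trimmed mean of M values (TMM) for the 6 tested EMT genes in the 6 libraries, where the circle is replicate 1, the triangle replicate 2 and the line the mean of a condition. FN1 and CDH2 were highest in the si-circ235-2 libraries, VIM in the si-circ235-1 libraries, and the ZEB1 libraries of si-circ235-2 lay at 1.42 and 8.27 CPM.

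Among the transcription factors, ZEB1 (ENSG00000148516, chr10:31318495-31529814, plus strand, GRCh38), a zinc finger repressor of CDH1, varied more than ZEB2 and SNAI1 between the libraries of each siRNA and less than they did in NC. Its level was 6.49 and 6.78 CPM in NC, 7.21 and 13.5 CPM under si-circ235-1, and 1.42 and 8.27 CPM under si-circ235-2. The si-circ235-2 libraries thus lay on either side of NC, and the si-circ235-1 libraries lay above it. The log2 fold change against NC was 0.65 with a standard error (SE) of 0.58 under si-circ235-1 (adjusted p = 0.526, edgeR) and -0.44 with an SE of 0.58 under si-circ235-2 (adjusted p = 0.604, edgeR).

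Within si-circ235-2, ZEB1 had 24 counts against 173, or 1.42 against 8.27 CPM. With 0.5 CPM added to each level, as for all replicate differences in this paragraph, the difference was 4.58-fold. It was wider than that of 98.6% of 1000 genes of like level in the same condition, while in NC the ZEB1 libraries differed 1.04-fold. Of 10378 genes with a mean of at least 5 CPM, 106 differed over 4-fold between the si-circ235-2 libraries, against 2 in NC and 2 under si-circ235-1. The direction of ZEB1 under si-circ235-2 turned with the library left out. Its log2 fold change against NC was -2.22 when si-circ235-2 replicate 2 was left out (adjusted p = 0.0015, edgeR) and 0.31 when replicate 1 was (adjusted p = 0.566, edgeR). Between the siRNAs it was -1.08 with an SE of 0.58 (adjusted p = 0.160, edgeR). Leaving out si-circ235-2 replicate 2 moved that difference to -2.87 (adjusted p = 6.5e-05, edgeR) and leaving out replicate 1 moved it to -0.33 (adjusted p = 0.519, edgeR). It passed the threshold when the filter on low counts was lifted, at -1.08 (adjusted p = 0.0031, edgeR), and when the length and GC trend was taken out with a replicate block, at -1.43 (adjusted p = 0.0298, edgeR). With 1 library left in an arm, that library is assumed to vary like the other conditions, here and wherever a library was left out.

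ZEB2 (ENSG00000169554, chr2:144364364-144524583, minus strand), the second ZEB repressor, was measured at 3.21 and 2.08 CPM in NC. Its level was 2.38 and 3.13 CPM under si-circ235-1 and 2.83 and 4.21 CPM under si-circ235-2. On this scale the libraries of all 3 conditions overlapped. On the TPM scale the si-circ235-2 libraries lay above those of NC, at 0.402 and 0.680 TPM against 0.318 and 0.254 TPM. The log2 fold change was 0.07 with a 95% interval of -0.77 to 0.90 for si-circ235-1 (adjusted p = 0.941, edgeR) and 0.42 with an interval of -0.40 to 1.24 for si-circ235-2 (adjusted p = 0.421, edgeR), which leaves room for a change of more than 2-fold upward under si-circ235-2. By summed exon length, ZEB1 exceeded ZEB2 in every library, by a ratio of TPM values of 5.85 and 9.46 in NC, 8.78 and 12.5 under si-circ235-1, and 1.45 and 5.70 under si-circ235-2. The lowest ratio came from the si-circ235-2 library with 24 ZEB1 counts. By longest transcript that library was at 0.765, so ZEB2 was the higher there, and the other 5 ratios were 3.01 to 6.61.

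SNAI1 (ENSG00000124216, chr20:49982999-49988886, plus strand), which encodes Snail, was measured at 9.45 and 13.9 CPM in NC. Under si-circ235-1 it was 13.7 and 9.49 CPM and under si-circ235-2 it was 10.7 and 11.6 CPM, and the conditions overlapped in every comparison. The log2 fold change was -0.01 with a 95% interval of -0.63 to 0.61 for si-circ235-1 (adjusted p = 0.987, edgeR) and -0.06 with an interval of -0.68 to 0.55 for si-circ235-2 (adjusted p = 0.884, edgeR). The sign of these values turned with the scaling, and changes of about 1.5-fold in either direction were within the intervals.

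SNAI2, which encodes Slug, had 2 counts in si-circ235-2 replicate 2 and none in the other 5 libraries. TWIST1 and TWIST2, basic helix-loop-helix factors, had no count in any library. For a gene with no count in the pooled libraries of a condition, a limit of 3 counts allows a level of up to 0.0909 CPM in NC, 0.0845 CPM under si-circ235-1 and 0.0911 CPM under si-circ235-2. No change in SNAI2, TWIST1 or TWIST2 was detectable at this depth.

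CDH1 (ENSG00000039068, chr16:68737225-68835548, plus strand) was near the limit of detection in all conditions. Its counts were 4 and 3 in NC, 0 and 2 under si-circ235-1, and 3 and 6 under si-circ235-2. The pooled level was 0.212 CPM in NC with an exact 95% Poisson interval of 0.0853 to 0.437 CPM. It was 0.0563 CPM (0.0068 to 0.203) under si-circ235-1 and 0.273 CPM (0.125 to 0.519) under si-circ235-2. These intervals cover counting error only and overlap between all conditions, which is not a test of a difference. When the filter was lifted, edgeR gave CDH1 a log2 fold change of -1.78 for si-circ235-1 (adjusted p = 0.775) and 0.06 for si-circ235-2 (adjusted p = 1). Between the siRNAs it was 1.84 (adjusted p = 0.58, edgeR), so no difference in CDH1 was called.

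CDH2 (ENSG00000170558, chr18:27950966-28177446, minus strand), the gene of N-cadherin, was the higher of the cadherins. Counts were 66 and 64 in NC, 62 and 74 under si-circ235-1, and 133 and 158 under si-circ235-2. These corresponded to 4.33 and 3.91 CPM, 4.34 and 4.13 CPM, and 7.85 and 7.55 CPM. The si-circ235-2 libraries stood above all others, and the NC and si-circ235-1 libraries overlapped. CDH2 rose 1.87-fold under si-circ235-2, a log2 fold change of 0.90 with an SE of 0.27 (adjusted p = 0.0275, edgeR).

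Under si-circ235-1 the log2 fold change of CDH2 was 0.04 with a 95% interval of -0.57 to 0.65 (adjusted p = 0.952, edgeR). Tested directly, CDH2 was higher under si-circ235-2 than under si-circ235-1 by 0.86 on the log2 scale, with an SE of 0.27 (adjusted p = 0.0261, edgeR). The calls of CDH2 were lost with DESeq2, where the log2 fold change against NC was 0.90 (adjusted p = 0.0627). They were also lost after removal of a trend with transcript length and GC content, where it was 0.38 (adjusted p = 0.275, edgeR). Leaving out any library of NC or si-circ235-2 also ended the call against NC, with log2 fold changes of 0.84 to 0.97, and leaving out any siRNA library ended the direct call, with 0.82 to 0.90. Per length, CDH2 was 2.29 TPM in NC and 5.91 TPM under si-circ235-2, against 0.0980 and 0.145 TPM for CDH1.

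VIM (ENSG00000026025, chr10:17228259-17237593, plus strand), which encodes the intermediate filament protein vimentin, was the most abundant of the EMT genes in every library. It was measured at 846 and 665 CPM in NC, 1173 and 1499 CPM under si-circ235-1, and 655 and 499 CPM under si-circ235-2. Both si-circ235-1 libraries exceeded both NC libraries, and both si-circ235-2 libraries fell below them. The mean was 1336 ± 231 CPM (SD, n = 2) under si-circ235-1 against 755.5 ± 127 CPM in NC, a ratio of 1.77 and a log2 fold change of 0.82 with an SE of 0.24, which missed the threshold (adjusted p = 0.0691, edgeR).

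Whether VIM was called under si-circ235-1 depended on the fit. It passed with DESeq2 (adjusted p = 0.0052), without the filter on low counts (adjusted p = 0.0138, edgeR), with only the libraries of NC and si-circ235-1 (adjusted p = 0.0239, edgeR) and after the length and GC trend was taken out (adjusted p = 0.0247, edgeR). It also passed without either library of si-circ235-2 and did not pass without any one of the NC or si-circ235-1 libraries, where the log2 fold change ranged from 0.64 to 1.00. Under si-circ235-2 the log2 fold change of VIM against NC was -0.39 with a 95% interval of -0.92 to 0.14 (adjusted p = 0.241, edgeR). On the TPM scale these libraries overlapped NC, at 451.6 and 392.0 TPM against 405.8 and 394.9 TPM.

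Between the siRNAs, VIM was lower under si-circ235-2, at a log2 fold change of -1.21 with an SE of 0.24 and a 95% interval of -1.75 to -0.68 (adjusted p = 0.0033, edgeR). It was called under every alternative run, with values from -1.46 to -0.88.

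FN1 (ENSG00000115414, chr2:215360440-215436172, minus strand), which encodes the matrix glycoprotein fibronectin, had the widest difference between conditions of the 6 tested genes. Its counts were 592 and 816 in NC, 439 and 560 under si-circ235-1, and 1993 and 2405 under si-circ235-2. Scaled, these were 38.8 and 49.9 CPM, 30.7 and 31.3 CPM, and 117.6 and 115.0 CPM. No condition overlapped another, with si-circ235-1 lowest and si-circ235-2 highest.

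FN1 rose 2.62-fold under si-circ235-2, a log2 fold change of 1.39 with an SE of 0.19 (adjusted p = 0.00182, edgeR), which ranked it 127 by p among all genes tested. Under si-circ235-1 the log2 fold change was -0.52 with an SE of 0.19 and a 95% interval of -0.94 to -0.10 and missed the threshold (adjusted p = 0.122, edgeR), which it passed once the length and GC trend was taken out, at -0.62 (adjusted p = 0.0393, edgeR). The direct difference between the siRNAs was 1.91 with an SE of 0.19, or 3.75-fold (adjusted p = 3.91e-04, edgeR). Per length, FN1 moved from 7.18 ± 2.31 TPM in NC to 25.5 ± 1.93 TPM under si-circ235-2 and stood at 4.62 ± 0.0524 TPM under si-circ235-1.

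The rise of FN1 was called in every alternative fit, but its size depended on transcript length and GC content. Once the trend over both was taken out, FN1 was at 0.78 on the log2 scale under si-circ235-2 (adjusted p = 0.0107, edgeR). Across 14386 genes the log2 fold change under si-circ235-2 had a Pearson r of 0.371 with log transcript length and -0.218 with GC content, given as a description over genes of the same libraries. FN1, with a longest transcript of 9171 bases, was longer than 95.1% of the genes tested, and CDH2, with 4332 bases, was longer than 65.2%. For si-circ235-1 the values of r were 0.0446 and -0.209. The part of length and GC content in the FN1 and CDH2 results was not tested beyond this fit.

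VIM and FN1, both taken as mesenchymal marks, differed in opposite directions between the siRNAs. The ratio of VIM to FN1 in TPM was 73.1 and 44.8 in NC, 128.2 and 161.0 under si-circ235-1, and 18.7 and 14.6 under si-circ235-2. The ratio was lowest in the si-circ235-2 libraries and highest in the si-circ235-1 libraries, with NC between them and no overlap. Against NC, the low ratio under si-circ235-2 lay in FN1, which averaged 25.5 TPM against 7.18 TPM. VIM averaged 421.8 TPM there against 400.4 TPM in NC, with overlapping libraries, and was not called.

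**Figure D3:**
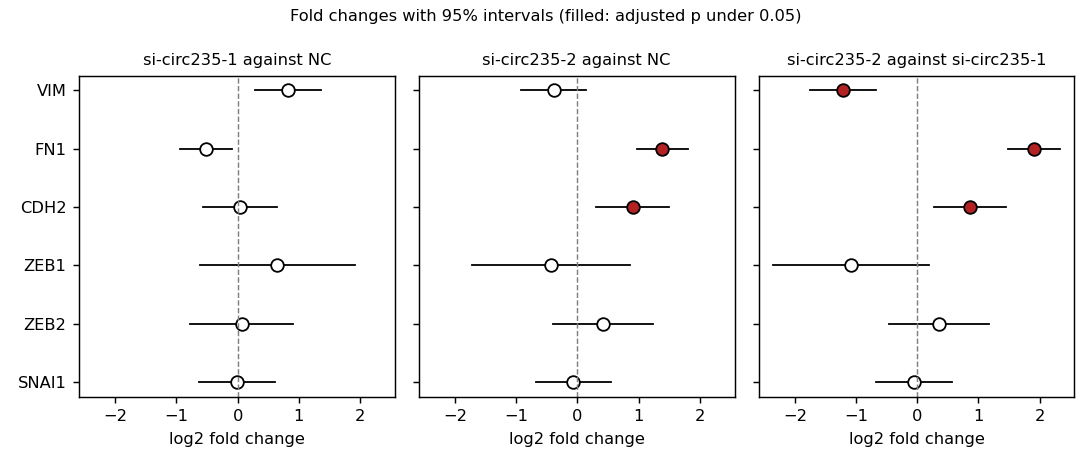
Log2 fold change of the 6 tested EMT genes in the 3 comparisons, with points for the edgeR estimate, bars for its 95% interval and filled points for an adjusted p under 0.05. FN1 and CDH2 were called under si-circ235-2, no gene was called under si-circ235-1, and FN1, CDH2 and VIM were called between the siRNAs.

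Antisense genes overlap several of these loci, and the libraries were not strand-specific, so reads of a gene and its antisense partner cannot be told apart where their exons overlap. VIM-AS1, which shares 641 exon bases with VIM, had 23 to 49 counts a library against at least 10440 for VIM. ZEB1-AS1, which shares 366 exon bases with ZEB1, had 49 and 39 counts in NC, 22 and 41 under si-circ235-1, and 55 and 62 under si-circ235-2. It was therefore above ZEB1 itself, at 24 counts, in si-circ235-2 replicate 1. ZEB2-AS1 had no count in any library, and AC110015.1, antisense to CDH2, had no more than 4.

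The genes that act with the EMT factors were described by 9 lists holding 84 genes, of which 67 were tested. Under si-circ235-1, 3 of the 67 were called against NC, 2 higher and 1 lower, a share of 4.48% beside 5.88% of all genes. With DESeq2, 9 of 79 were called (11.4%), where 5.17% of 25830 genes with a count were. The 25830 include many genes with low counts that the edgeR filter left out, so these shares do not compare like genes. Under si-circ235-2, 32 of the 67 were called, 25 higher and 7 lower, a share of 47.8% beside 31.4% of all genes, and their median log2 fold change was 0.48. Leaving out NC replicate 1 brought that count to 7 of 68 (10.3%), where calls over all genes were 5.10%. Leaving out si-circ235-2 replicate 2 brought it to 13 of 67 (19.4%), where they were 21.8%. Removing the length and GC trend gave 20 (29.9%, beside 25.9% of all genes), 15 of them higher and 5 lower, and a list median of 0.10. Without TMM scaling, 34 were higher and 1 lower (52.2%, beside 31.0% of all genes). Calls over all genes also leaned upward in that fit, though less than the lists, with 3173 higher and 1294 lower (71.0% higher). As reported they were even, at 2270 higher and 2260 lower, and with the trend removed they were 1613 and 2111. The cause of the upward lean in the lists was not tested.

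Of the 9 tested genes of TGF-beta signalling, the main inducing pathway of EMT, 1 rose under si-circ235-1, and 4 rose and 1 fell under si-circ235-2. Over all genes, 5.88% and 31.4% were called in these comparisons. TGFBR1, a receptor kinase, rose under si-circ235-1 by a log2 fold change of 0.97 (adjusted p = 0.0303, edgeR) and under si-circ235-2 by 0.74 (adjusted p = 0.0240, edgeR). No gene of the list was called under si-circ235-1 without TMM scaling, or when any single NC or si-circ235-1 library was left out. Under si-circ235-2 the ligand TGFB2 rose by 1.11 (adjusted p = 0.0249, edgeR) and the receptor TGFBR2 by 0.91 (adjusted p = 0.0067, edgeR). The call that was lower belonged to TGFB1, the most studied ligand, named here after its values were seen, at -0.61 (adjusted p = 0.0342, edgeR). TGFB1 averaged 235.1 CPM in NC, 346 CPM under si-circ235-1 and 154 CPM under si-circ235-2, and it was lower under si-circ235-2 than si-circ235-1 (log2 difference -1.16, adjusted p = 0.00144, edgeR). SMAD3, a transducer of the pathway, was at -0.06 under si-circ235-1 (adjusted p = 0.882, edgeR) and rose by 0.70 under si-circ235-2 (adjusted p = 0.0236, edgeR). Without NC replicate 1 none of these 9 genes was called under si-circ235-2 either, and without si-circ235-2 replicate 2 there was 1. The list median under si-circ235-2 was 0.46 as reported and -0.02 once the length and GC trend was taken out.

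None of 5 other EMT transcription factors tested by edgeR, or of 7 by DESeq2, was called against NC under either siRNA. In each comparison 1 of the 5 had an unadjusted p under 0.05, beside 3644 and 6212 of all 14415 genes. Under si-circ235-2, edgeR called 1 of the 5 factors higher without TMM scaling and 1 once the length and GC trend was taken out. Of 12 corepressors and degradation factors of the EMT proteins, 1 rose under si-circ235-1 and 5 rose under si-circ235-2. Calls over all genes were 5.88% and 31.4% in these comparisons. GSK3B, the kinase that marks Snail for degradation, rose under both siRNAs, by 1.14 (adjusted p = 0.0119, edgeR) and 1.43 (adjusted p = 0.00179, edgeR). Under si-circ235-2, BTRC, a substrate receptor of the ligase that recognises phosphorylated Snail, rose by 1.04 (adjusted p = 0.0061, edgeR) and FBXL14, another ligase subunit, by 0.82 (adjusted p = 0.0408, edgeR). EZH2, a histone methyltransferase, was at -0.04 (adjusted p = 0.901, edgeR). The si-circ235-2 count was 1 when NC replicate 1 was left out and 2 when si-circ235-2 replicate 2 was. Once the trend was taken out it was 2 higher and 1 lower, and the list median turned from 0.31 to -0.10. No gene of the list was called under si-circ235-1 when NC replicate 1 or si-circ235-1 replicate 2 was left out.

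Of the epithelial transcription and splicing factors, 4 of 8 were tested. GRHL1, a grainyhead factor, rose by 1.06 under si-circ235-2 (adjusted p = 0.0286, edgeR). ELF3, an epithelial ETS factor, was at -0.02 under si-circ235-1 (adjusted p = 0.966, edgeR), where no gene of this list was called by either tool or had an unadjusted p under 0.05. No gene of it was called higher under si-circ235-2 when NC replicate 1 or either si-circ235-2 library was left out, or once the trend was taken out. Among other cadherins, 3 of 8 were tested. CDH24 fell by 0.64 under si-circ235-2 (adjusted p = 0.0470, edgeR), and CDH13, a cadherin anchored to the membrane by a lipid, was at 0.21 under si-circ235-1 (adjusted p = 0.667, edgeR). The lower call in this list was lost when any library except si-circ235-1 replicate 2 was left out, once the trend was taken out, without TMM scaling, without the filter on low counts and with only the libraries of NC and si-circ235-2.

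Of the 7 catenins and adherens junction partners of the cadherins, edgeR called none under si-circ235-1, where it called 5.88% of all genes. DESeq2 called 1 there, and 2 had an unadjusted p under 0.05, beside 3644 of all 14415 genes. Under si-circ235-2 all 7 were called by edgeR, 5 higher and 2 lower, where 31.4% of all genes were called. AFDN, which links nectins to actin, rose by 1.36 (adjusted p = 0.0027, edgeR), VCL, the gene of vinculin, by 1.29 (adjusted p = 0.0027, edgeR), and CTNND1, the gene of p120 catenin, by 1.17 (adjusted p = 0.0031, edgeR). The genes that fell were NECTIN2, a nectin of adherens junctions, by 0.72 (adjusted p = 0.0173, edgeR), and JUP, the gene of plakoglobin, named after its values were seen, by 0.89 (adjusted p = 0.0141, edgeR). NECTIN2 was at -0.04 under si-circ235-1 (adjusted p = 0.922, edgeR). The si-circ235-2 count was 3 when NC replicate 1 was left out, 3 when si-circ235-2 replicate 2 was, and 4 once the length and GC trend was taken out.

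Of 11 epithelial junction genes tested, 5 rose and 2 fell under si-circ235-2, where 31.4% of all genes were called. The list median there was 0.80 on the log2 scale. TJP1, the scaffold ZO-1 of tight junctions, rose by 1.82 (adjusted p = 0.0022, edgeR), DSP, the gene of desmoplakin, by 1.42 (adjusted p = 0.00179, edgeR) and OCLN, the gene of occludin, by 1.25 (adjusted p = 0.0128, edgeR). Under si-circ235-1 edgeR called none of the 11, while DESeq2 called 1 of 12. Before adjustment 4 of the 11 were under 0.05 in that comparison, beside 3644 of all 14415 genes. PKP3, a desmosome plakophilin, was at -0.09 there (adjusted p = 0.826, edgeR) and fell by 0.62 under si-circ235-2 (adjusted p = 0.0339, edgeR). The other gene that fell was CLDN4, a claudin named after its values were seen, by 0.92 (adjusted p = 0.0146, edgeR). The si-circ235-2 count was 2 when NC replicate 1 was left out and 5 once the trend was taken out.

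Of 10 other mesenchymal markers tested, 4 rose under si-circ235-2 and 1 fell under si-circ235-1, where calls over all genes were 31.4% and 5.88%. ITGB1, an integrin chain that takes part in fibronectin binding, rose by 1.52 under si-circ235-2 (adjusted p = 0.0033, edgeR). TNC, the matrix protein tenascin-C, fell by 1.31 under si-circ235-1 (adjusted p = 0.0151, edgeR) and was also called higher under si-circ235-2, at 0.72 (adjusted p = 0.0343, edgeR), so that its means of 58.6 CPM in NC, 23.6 CPM under si-circ235-1 and 96.3 CPM under si-circ235-2 were in the order seen for FN1. AXL, a receptor kinase, was at -0.16 under si-circ235-1 (adjusted p = 0.638, edgeR). The count under si-circ235-2 was 1 without NC replicate 1 and 2 without si-circ235-2 replicate 2.

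Of 6 other intermediate filament and linker genes, 1 rose and 1 fell under si-circ235-2, where 31.4% of all genes were called. KRT7, a simple epithelial keratin, fell by 0.76 (adjusted p = 0.0260, edgeR), and PLEC, the linker plectin, was at -0.07 (adjusted p = 0.831, edgeR). Under si-circ235-1 edgeR called none of the 6, while DESeq2 called 1 of 7. Before adjustment 3 of the 6 were under 0.05 in that comparison, beside 3644 of all 14415 genes. No gene of the list was called under si-circ235-2 when NC replicate 1 or si-circ235-2 replicate 2 was left out, or once the length and GC trend was taken out.

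**Figure D4:**
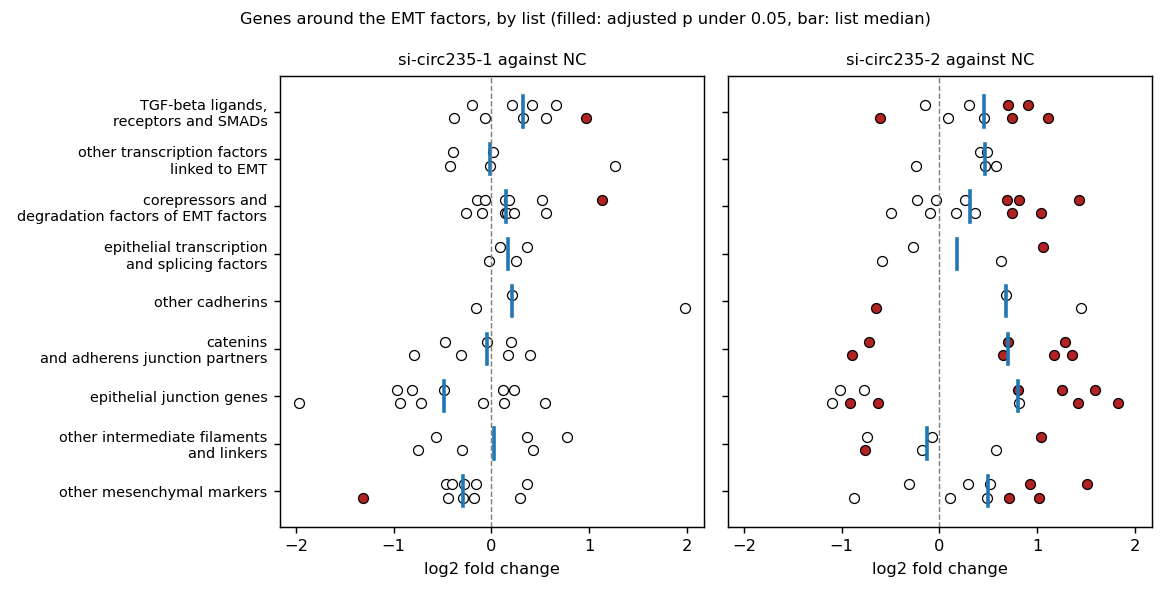
Log2 fold change against NC of each tested gene in 9 lists around the EMT factors, for si-circ235-1 and si-circ235-2, where a filled point has an adjusted p under 0.05 (edgeR) and the bar is the list median. The median of the epithelial junction genes was -0.48 in the left panel and 0.80 in the right, and 32 of 67 genes were called under si-circ235-2 against 3 under si-circ235-1. Over all genes the shares called were 31.4% and 5.88%.

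**Figure D5:**
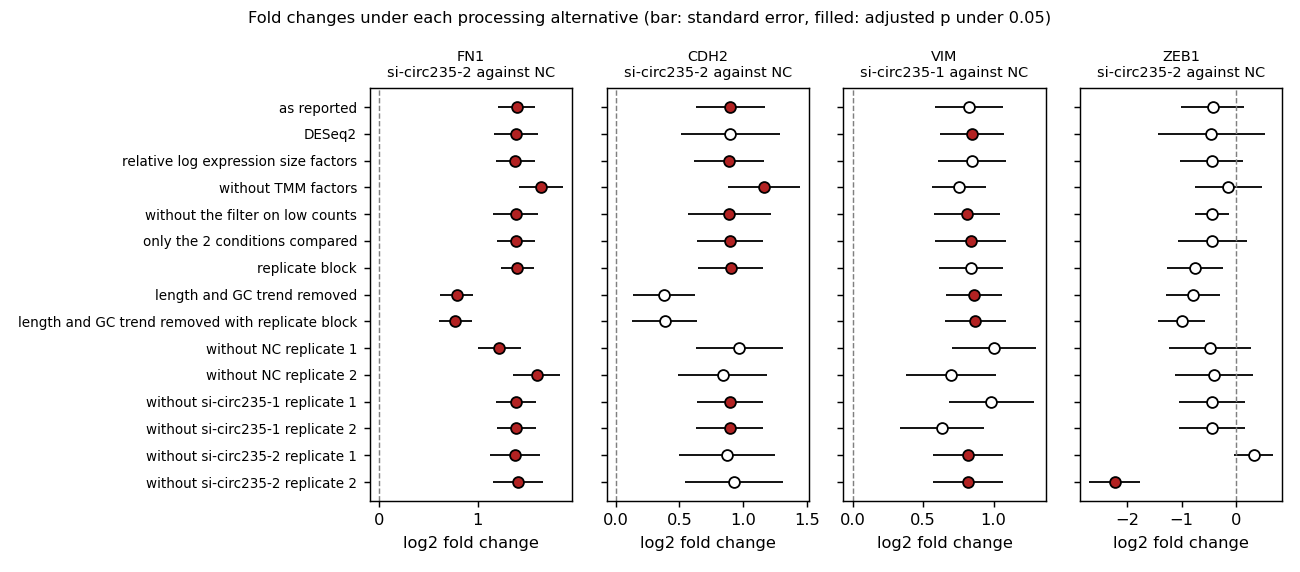
Log2 fold change and SE of FN1, CDH2 and ZEB1 under si-circ235-2 and of VIM under si-circ235-1, against NC, as reported and under each alternative fit, where a filled point has an adjusted p under 0.05. FN1 stayed between 0.77 and 1.63 and was called in each fit, CDH2 and VIM crossed the threshold in some, and ZEB1 ranged from -2.22 to 0.31 as single si-circ235-2 libraries were left out.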

How the data were processed

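Poly(A)-enriched RNA of T24 cells was sequenced in 3 conditions with 2 libraries each. The authors deposited raw gene counts. The submitters' processing notes name FastQC, cutadapt, STAR and hg38, and how reads were counted, by which annotation release, is not given in the sources used. Of the 58288 gene identifiers, 57980 (99.5%) matched GENCODE release 29 (GRCh38), which supplied positions, exon lengths and UTRs.

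The counts were tested with edgeR 4.0.16 in R 4.3.3 by the quasi-likelihood test, after filterByExpr and TMM scaling, with 1 mean per condition over all 6 libraries and Benjamini-Hochberg adjustment over 14415 genes. The study's methods name gene set enrichment analysis and give no gene-level test for the sequencing. CPM values are after TMM scaling, and pooled CPM of the untested genes use library totals. A floor of 3 counts equals 0.143 to 0.210 CPM in a library. DESeq2 1.42.0, other size factors, no filter, fewer libraries, a replicate block and removal of a spline trend over transcript length and GC content were tried as alternatives. The scripts were tested on simulated counts. Replicate libraries differed beyond sampling noise, and none was identical to another.

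The 10 genes, the lists and the tests were chosen with earlier results of these data known. From each list the text names up to 3 called genes with the largest change against NC and a mean of at least 5 CPM, and the gene at that level with the highest adjusted p; a few genes that the rule selects are not reported here. MicroRNA sequences are from RefSeq, in which all 7 names matched.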

Additional observations from a re-analysis of the deposited data

Results flagged for a closer look

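The effects of si-circ235-1 and si-circ235-2 against the same NC libraries differed, by a direct test in edgeR, for 3 of the 6 tested EMT genes. The log2 difference (si-circ235-2 less si-circ235-1) was 1.91 for FN1 (adjusted p = 3.91e-04), 0.86 for CDH2 (adjusted p = 0.0261) and -1.21 for VIM (adjusted p = 0.0033), where 39.7% of all genes were called. FN1 and CDH2 were higher, and VIM lower, in both si-circ235-2 libraries than in both si-circ235-1 libraries. Groups of 2 libraries were too small to be examined for single outlying libraries.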

How the results depend on the processing

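Of 252 refitted fold changes of the 6 tested genes, 204 kept their direction and side of the threshold, 14 lost and 12 gained a call, and 22 changed sign. Members called under si-circ235-1 rose from 0 to 1 with DESeq2, without the low-count filter, with only the libraries of the conditions compared and with removal of the length and GC trend together with the replicate block, to 2 with the trend removed alone, and were 0 to 1 with single libraries left out. Under si-circ235-2 they fell from 2 to 1 with DESeq2 and with the trend removed with or without the block, and were 1 to 2 with libraries left out. Listed genes called under si-circ235-1 went from 3 to 9 with DESeq2, 9 without the filter, 7 with only those conditions, 9 with the trend removed and 6 with the block added, and 0 to 6 with libraries left out. Under si-circ235-2 they went from 32 to 20 with the trend removed and 15 with the block added, and 7 to 29 with libraries left out. Between the siRNAs they were 28 as reported and 13 to 27 with libraries left out, the lowest without si-circ235-1 replicate 2. Beside them, calls over all genes moved as well. Under si-circ235-1 the shares of listed and of all genes were 13.4% and 13.7% with the trend removed, and 8.96% and 8.99% with the block added. With only those conditions they were 10.45% and 11.98%, with DESeq2 11.4% and 5.17%, and without the filter 11.4% and 6.50%. Under si-circ235-2 they were 29.9% and 25.9% with the trend removed, and 22.4% and 21.4% with the block added. The cause of these moves was not tested, beyond fewer libraries where one was left out.

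Sign changes were at SNAI1, ZEB2, CDH2 and ZEB1. SNAI1 under si-circ235-1 was 0.0108 with DESeq2 and 0.0127 with relative log expression factors, 0.18 with the trend removed, 0.23 with the block added and -0.30 to 0.33 with libraries left out. SNAI1 under si-circ235-2 was 0.18 without TMM, 0.42 with the trend removed, 0.43 with the block added and -0.32 to 0.25 with libraries left out. Between the siRNAs SNAI1 was 0.28 without TMM, 0.23 with the trend removed, 0.21 with the block added and -0.30 to 0.23 with libraries left out. ZEB2 under si-circ235-1 was -0.0932 with the trend removed, -0.0640 with the block added and -0.18 to 0.41 with libraries left out, and under si-circ235-2 it was -0.0165 with the trend removed. CDH2 under si-circ235-1 was -0.0363 without TMM and -1.141e-04 to 0.11 with libraries left out. ZEB1 under si-circ235-2 was -2.22 to 0.31 with libraries left out.

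The labels do not say what a replicate number shares, and pairing by number was not shown. Same-numbered libraries had correlations of deviations of -0.117 (NC and si-circ235-1), 0.198 (NC and si-circ235-2) and 0.190 (between the siRNAs). With the replicate block, members called were 0, 2 and 3 in the 3 comparisons and all genes called were 369 higher and 568 lower, 2311 and 2439, and 3142 and 2901. Without TMM the log2 fold changes of all genes had medians of -0.11, 0.25 and 0.37, and calls were 179 higher and 529 lower, 3173 and 1294, and 4534 and 1496, against 323 and 524, 2270 and 2260, and 3047 and 2678 as reported. With the trend removed they were 1189 and 778, 1613 and 2111, and 2469 and 3343. Depth limits CDH1, SNAI2, TWIST1 and TWIST2, which had 0 to 6 counts a library.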

Other observations

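Single genes followed the EMT genes closely across the 6 libraries, as a description of libraries that share conditions and scaling. Among 10377 other genes with a mean of at least 5 CPM, the highest Pearson r of log2 CPM with FN1 was that of CREBBP (0.999) and ZNF532 (0.999), and 738 genes exceeded 0.95. For CDH2 they were SRGAP2 (0.998) and MGLL (0.995), with 277 genes above 0.95, and for VIM they were PIGU (0.998) and CMTM3 (0.998), with 305. For ZEB1 they were ZNF268 (0.995) and PJA2 (0.993), with 162. ZEB2 was most like XRCC2 (0.912) and RNF217 (0.898), and SNAI1 most like MRPS22 (0.926) and WDR45B (0.895), with no gene above 0.95 for ZEB2 or SNAI1.

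Host genes named for microRNAs shown were at or near 0. MIR200CHG had no count in any of the 6 libraries and MIR205HG had 1 count in NC replicate 2.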
